A study of Danio rerio with 3 samples.

Results

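The genes epas1b, flt1 and cyp1b1 were described across the cell clusters and the 3 days of a droplet single-cell RNA study of the adult zebrafish heart. They are 3 of the 26320 genes in the expression table. They were chosen by their measured levels: they stood at ranks 1, 6 and 9 of the 10 leading genes, by fold over all other cells, of cluster 2, an endothelial-like cluster made up mostly of cells from uninjured hearts. Their folds there were 8.61 for epas1b, 4.63 for flt1 and 4.55 for cyp1b1. Their level in cluster 2, and therefore much of their course over the days, was part of that choice, so the levels are given as a description with no test.

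Hearts came from adult fish of strain AB, about 5 to 12 months old, in which ventricular cardiomyocytes were ablated with 5 mM metronidazole in 0.1% DMSO for 48 hours. The day 0 group was collected before metronidazole, and the other groups 3 and 7 days after injury. Each day had 1 library pooled from 6 hearts, 3 male and 3 female, digested in 2 sets of 3, so no spread between fish can be given and effects of the drug and of the injury cannot be told apart. The labels name several transgenic lines, among them one that expresses nitroreductase under the vmhc promoter of ventricular cardiomyocytes, but do not say which line these libraries used.

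The table held 754 cells, 272 at day 0, 114 at day 3 and 368 at day 7, against a stated recovery of 141 cells at day 3. Every cell had at least 2004 UMIs (unique molecular identifiers, each marking 1 captured RNA molecule), with a median of 2677 for the day 0 library, 3260.5 for day 3 and 3124.5 for day 7. The libraries shared 1 cell barcode. The authors' 7 finer clusters carry numbers only. The cluster with the highest cardiomyocyte marker sum, cluster 5, was called cardiomyocyte-like, and the others took the highest of their endothelial, mural and fibroblast sums: clusters 0, 2, 3 and 6 were endothelial-like, cluster 1 mural-like and cluster 4 fibroblast-like. Among the 10 leading genes, cluster 2 had the endothelial marker ecscr and cluster 6 had vwf, while cluster 0 and cluster 3 lacked any. With the days pooled, endothelial markers summed to between 2379 and 5865 UMIs per 1000000 UMIs (CPM) in clusters 0, 2, 3 and 6. They summed to 369 CPM in cluster 1, 435 CPM in cluster 4 and 1485 CPM in cluster 5. In clusters 0, 2, 3 and 6, cardiomyocyte markers summed to between 2402 and 49201 CPM. Epicardial markers, a list that shares podxl with the endothelial one, summed to between 3199 and 11059 CPM there. In each of these clusters 1 or both of these sums exceeded the endothelial one. Cluster 3 at day 3, with 60 cells, was the least distinct large group. It had 1636 CPM of endothelial, 1525 CPM of mural and 1249 CPM of fibroblast markers, against 1837 CPM of endothelial markers in cluster 5 at day 7. The 4 endothelial-like clusters are called the endothelial class below, with 166 cells at day 0, 113 at day 3 and 224 at day 7. Cluster 2 held 86 cells at day 0, 3 at day 3 and 9 at day 7, so that 86 of its 98 cells came from the day 0 library.

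Endothelial cells sense oxygen and growth factors through pathways in which these genes act at different steps. epas1b encodes one of the zebrafish forms of HIF-2 alpha, a transcription factor that prolyl hydroxylases and the VHL ubiquitin ligase mark for destruction when oxygen is plentiful. flt1 encodes VEGF receptor 1, which binds VEGF tightly but signals weakly and also exists as a soluble form, so that it limits the VEGF that reaches the main signalling receptor; the gene counts do not separate these forms. cyp1b1 encodes a cytochrome P450 that oxidises steroids, retinoids and foreign aromatic compounds, is induced through the aryl hydrocarbon receptor (AHR) and, in mammals, is found in endothelial cells.

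All 3 genes had their highest level in cluster 2 at day 0. epas1b had 574 UMIs in 217 of the 754 cells, flt1 had 99 UMIs in 71 cells, and cyp1b1 had 103 UMIs in 68 cells. A level was taken as the gene's summed UMIs per 1000000 UMIs of the cells, with a 95% exact Poisson interval that covers counting error only.

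**Figure D1:**
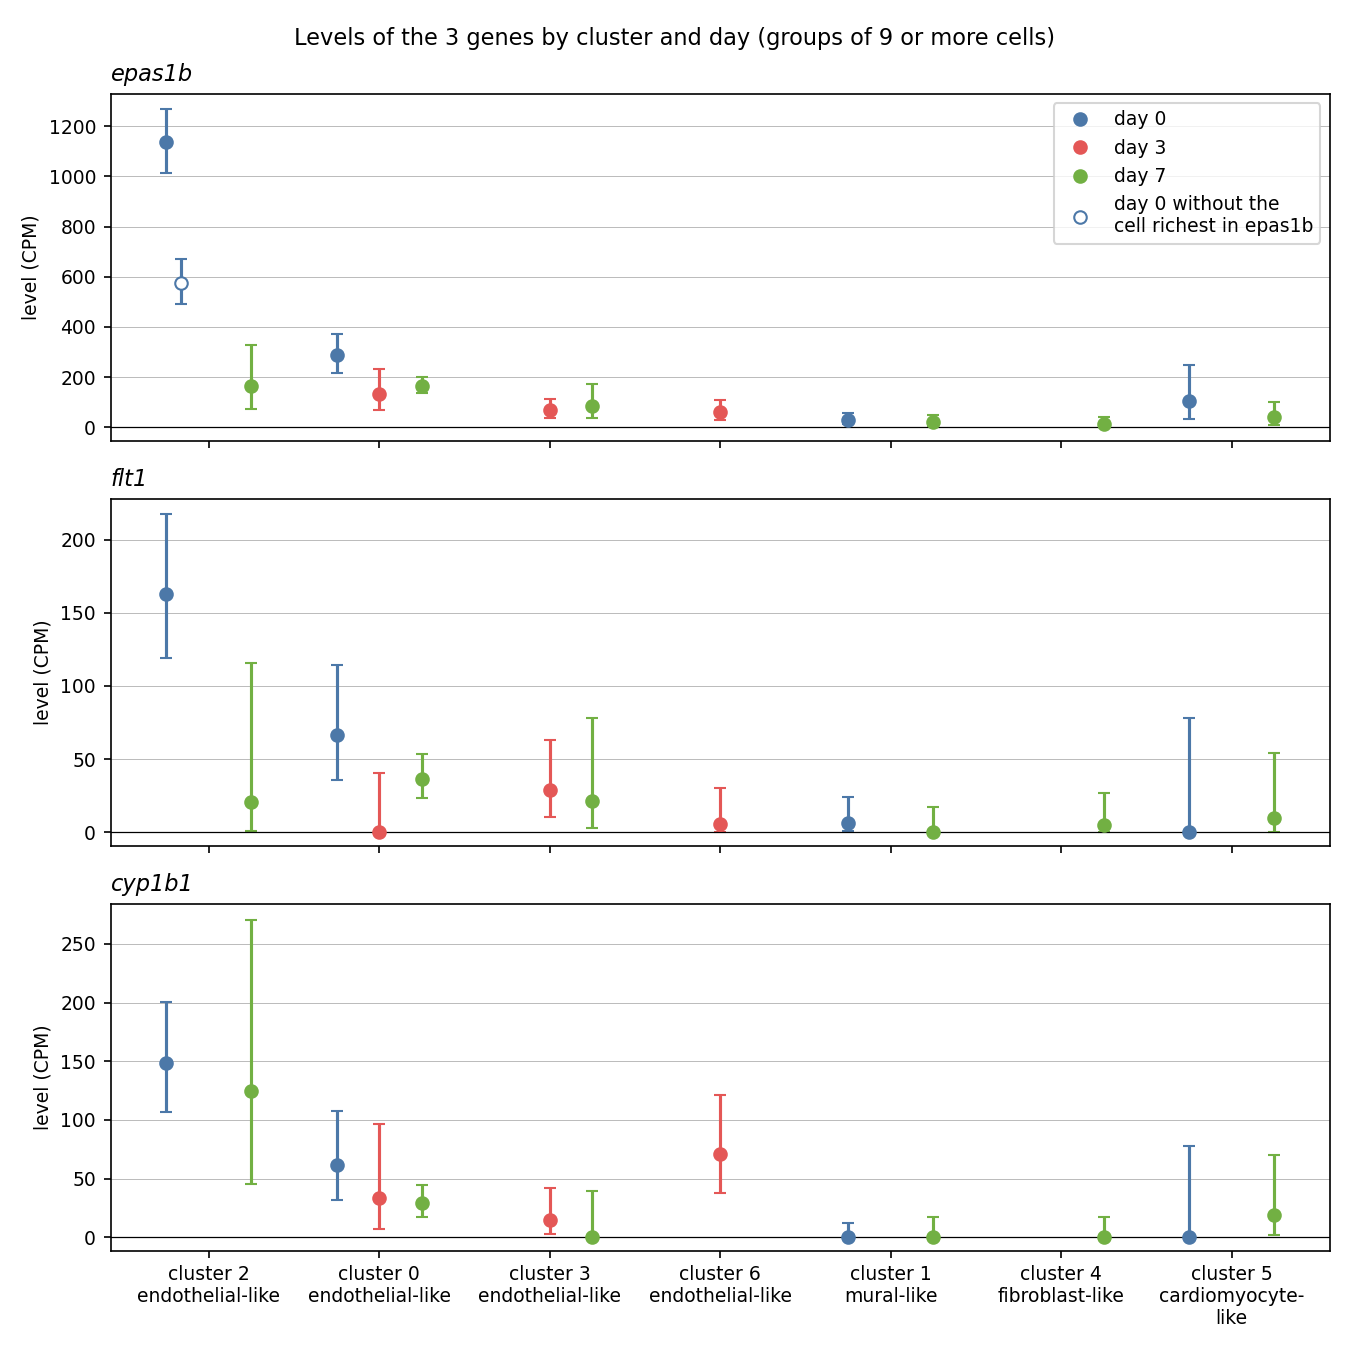
Level in CPM (vertical axis) of epas1b, flt1 and cyp1b1 in each cluster and day with 9 or more cells. Points are summed UMIs per 1000000 UMIs, bars are 95% exact Poisson intervals, and colours mark the days. The open point is cluster 2 at day 0 without the cell richest in epas1b: the level is 576 CPM there, against 1136 CPM with all cells.

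The transcription factor gene epas1b had 750 CPM in the endothelial class at day 0 (interval 677 to 829, 382 UMIs). It had 75.6 CPM at day 3 (53.3 to 104, 37 UMIs) and 156 CPM at day 7 (131 to 186, 130 UMIs). The level was therefore highest at day 0 and lowest at day 3. No pair of these intervals overlapped, but they cover counting error only, and the choice of the gene partly set the day 0 level. Without the cell richest in epas1b, the day 0 level was 438 CPM (382 to 500), below the whole interval with all cells. The class held different clusters on each day: cluster 2 made up 51.8% of its cells and cluster 0 43.4% at day 0, cluster 3 made up 53.1% and cluster 6 30.1% at day 3, and cluster 0 made up 86.2% at day 7. Over the class, day 3 was 9.92-fold lower than day 0 (7.07 to 14.3), day 7 was 4.80-fold lower than day 0 (3.92 to 5.90), and day 7 was 2.07-fold higher than day 3 (1.43 to 3.07).

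A single cell carried much of the day 0 level of epas1b. In cluster 2 at day 0 the highest cell had 161 UMIs of epas1b, the next had 18, and these 161 UMIs were 50.2% of the 321 found in the 86 cells. epas1b was the second most abundant gene of that cell, with 3.48% of its 4627 UMIs, after the nuclear noncoding RNA malat1 with 343 UMIs. The same cell had 3 UMIs of cyp1b1, none of flt1 and 13 UMIs of endothelial markers. Concentration in 1 cell was not rare in the table: among 781 genes with at least 50 UMIs in the day 0 endothelial class, the median gene had 6.67% of its UMIs in its richest cell, and 116 genes (14.9%) had at least the 42.1% of epas1b.

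Without the richest cell of each group, epas1b was still lower after injury, by 6.47-fold at day 3 against day 0 (4.43 to 9.75) and by 2.92-fold at day 7 against day 0 (2.33 to 3.67). The share of cells with at least 1 UMI, which that cell can hardly move, had the same order. At day 0, 102 of 166 cells had it (61.4%, exact Clopper-Pearson interval 53.6 to 68.9), at day 3, 21 of 113 did (18.6%, 11.9 to 27.0), and at day 7, 74 of 224 did (33.0%, 26.9 to 39.6). With every cell thinned to 2000 UMIs, so that depth is equal and no cell is left out, the shares were 50.5%, 10.7% and 22.5% for days 0, 3 and 7.

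By cluster, epas1b had 1136 CPM in cluster 2 at day 0 (321 UMIs in 64 of 86 cells) and 287 CPM in cluster 0 of the same library (56 UMIs in 34 of 72 cells). That is 3.96-fold higher in cluster 2 (2.97 to 5.35), or 2.13-fold without the richest cells (1.55 to 2.97). Cluster 0 then had 132 CPM at day 3 (12 UMIs, of which 6 were in the deepest cell of the library) and 165 CPM at day 7 (114 UMIs in 66 of 193 cells). In cluster 0 alone, which spans all 3 days, day 3 was 2.17-fold lower than day 0 (1.15 to 4.44) and day 7 was 1.74-fold lower than day 0 (1.24 to 2.41). Both folds were smaller than over the whole class; the difference between these values was not tested.

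Among the other endothelial-like groups, cluster 2 had 166 CPM at day 7 (8 UMIs in 4 of 9 cells) and no UMI in its 3 cells of day 3, cluster 3 had 67.8 CPM at day 3 and 86.4 CPM at day 7, and cluster 6 had 60.2 CPM at day 3. In the order of levels over groups of at least 10 cells, the first place of cluster 2 at day 0 was set by the choice of the gene. Of the neighbours below it, cluster 0 at day 0 and cluster 0 at day 7 differed beyond their counting interval, and no other pair did.

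Cells outside the endothelial class give the level to read these against. Mural-like cells, which wrap small vessels, had epas1b in 9.1% of 88 cells at day 0 and at 29.9 CPM, with a median of 2950.5 UMIs per cell, against 2587 in the endothelial class. The endothelial class was 25.1-fold higher than the mural-like cells at day 0 (13.1 to 55.3) and 8.29-fold higher at day 7. Without the richest cell of each group these were 18.7-fold (8.91 to 47.0) and 10.4-fold. All 3 genes were chosen by their fold in cluster 2 over all other cells, mural-like cells included. Contrasts with cells outside the class were therefore partly set by the choice. Cardiomyocyte-like cells had 106 CPM at day 0, from 5 UMIs in 2 of 18 cells. At day 3 no mural-like or cardiomyocyte-like cell was recovered, so no such background could be measured there.

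**Figure D2:**
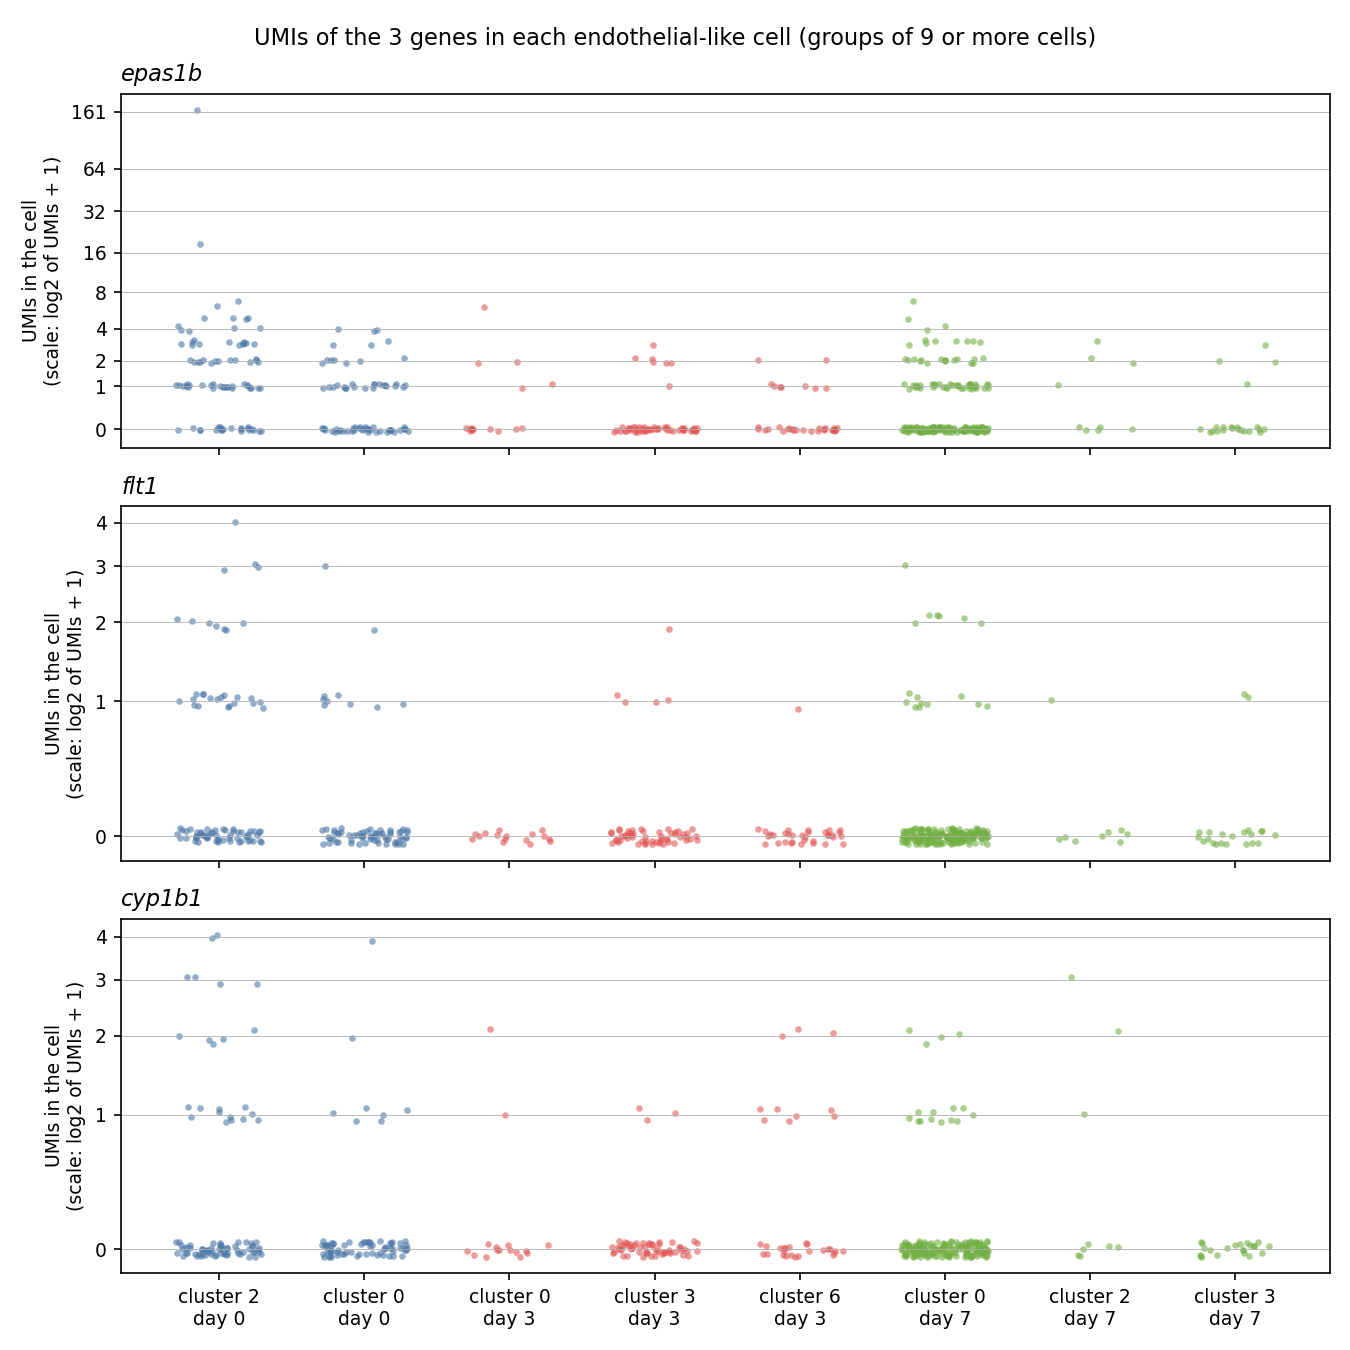
UMIs of each gene (vertical axis, log2 scale of UMIs + 1) in each cell of the endothelial-like groups with 9 or more cells, spread sideways for visibility. One cell of cluster 2 at day 0 has 161 UMIs of epas1b; flt1 and cyp1b1 reach 4 UMIs at most.

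The receptor gene flt1 had the same order over the days from far fewer molecules. Its level in the endothelial class was 118 CPM at day 0 (89.9 to 152, 60 UMIs), 14.3 CPM at day 3 (5.8 to 29.5, 7 UMIs) and 33.7 CPM at day 7 (22.4 to 48.7, 28 UMIs). Day 3 was 8.23-fold lower than day 0 (3.76 to 21.4) and day 7 was 3.50-fold lower than day 0 (2.20 to 5.69). Day 7 was 2.35-fold higher than day 3, with an interval that reaches 1.00. flt1 was found in 24.7% of the cells at day 0, 5.3% at day 3 and 8.9% at day 7, or in 17.3%, 2.9% and 4.7% after thinning.

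flt1 was spread over many cells, with at most 4 UMIs in any one. Cluster 2 at day 0 had 46 UMIs in 30 of 86 cells, 163 CPM, against 13 UMIs in 10 of 72 cells, 66.6 CPM, in cluster 0 at day 0. The ratio was 2.44 (1.30 to 4.93), a value of the kind that chose the gene, and no neighbours below cluster 2 at day 0 in the order of flt1 levels differed beyond their interval. Cluster 0 had 36.2 CPM at day 7 (25 UMIs), 1.84-fold lower than its day 0 level, with an interval (0.86 to 3.74) that includes no change. At day 3, 6 of the 7 UMIs were in cluster 3, 1 was in cluster 6 and none in the 16 cells of cluster 0, where a count of 0 allows up to 33.1 CPM. Mural-like cells had 2 UMIs in 88 cells at day 0 and none in 61 cells at day 7, and cardiomyocyte-like cells had none in 18 cells at day 0 and 1 UMI in 30 cells at day 7.

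The enzyme gene cyp1b1 was also highest at day 0 in the endothelial class, with 110 CPM (83.1 to 143, 56 UMIs), and had 38.8 CPM at day 3 (23.4 to 60.7, 19 UMIs) and 31.3 CPM at day 7 (20.4 to 45.8, 26 UMIs). Unlike for the other two genes, the day 3 value was not below the day 7 value: the level at day 7 over day 3 had a ratio of 0.81 (0.43 to 1.54). On the log2 scale, day 3 over day 0 was -1.50 (-2.34 to -0.73) and day 7 over day 0 was -1.81 (-2.54 to -1.12). Shares of cells were 19.3%, 13.3% and 8.5% at days 0, 3 and 7, and 14.6%, 5.9% and 4.9% after thinning, so with equal depth the share at day 3 was close to that at day 7.

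Within day 3, cluster 6 held 68.4% of the cyp1b1 UMIs of the class with 30.1% of its cells: 13 UMIs in 10 of 34 cells, 71.1 CPM (37.9 to 122), against 3 UMIs in 3 of 60 cells, 14.5 CPM, in cluster 3. That is 4.90-fold higher in cluster 6, with a wide interval (1.35 to 26.8). Cluster 6 cells were also deeper, with a median of 4408 UMIs against 2880.5 in cluster 3, which CPM allows for and shares of cells do not. flt1 had 1 UMI in cluster 6 and 6 UMIs in cluster 3, a ratio whose interval includes no difference, and epas1b had 11 and 14 UMIs, a ratio of 0.89 (0.36 to 2.11).

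cyp1b1 in cluster 2 at day 0 had 149 CPM (42 UMIs in 23 of 86 cells), 2.42-fold higher than the 61.5 CPM of cluster 0 at day 0 (1.25 to 5.04). In order of level the next group was cluster 6 at day 3, and no neighbours below cluster 2 at day 0, whose place the choice set, differed beyond their interval. Cluster 0 had 29.0 CPM of cyp1b1 at day 7 (20 UMIs in 16 of 193 cells), 2.12-fold lower than at day 0, with an interval (0.95 to 4.56) that includes no change. In the few cluster 2 cells of day 7 it had 124 CPM, from 6 UMIs in 3 of 9 cells, or 71.3 CPM without the richest cell, which held 3 of them. Those 4.02% of the class held 23.1% of its cyp1b1 UMIs at day 7, and the ratio of day 7 to day 0 within cluster 2 was 0.84 (0.29 to 1.98), or 0.52 without the richest cells (0.10 to 1.64). epas1b in those same 9 cells was 6.85-fold lower than in cluster 2 at day 0 (3.43 to 16.0), or 5.00-fold without the richest cells. No cyp1b1 UMI was found in 149 mural-like cells or in the fibroblast-like cells of day 7, and the endothelial class at day 0 was at least 11.0-fold higher than the mural-like cells, with the mural-like level set to 3 UMIs. Cardiomyocyte-like cells had none in 18 cells at day 0 and 2 UMIs in 30 cells at day 7.

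**Figure D3:**
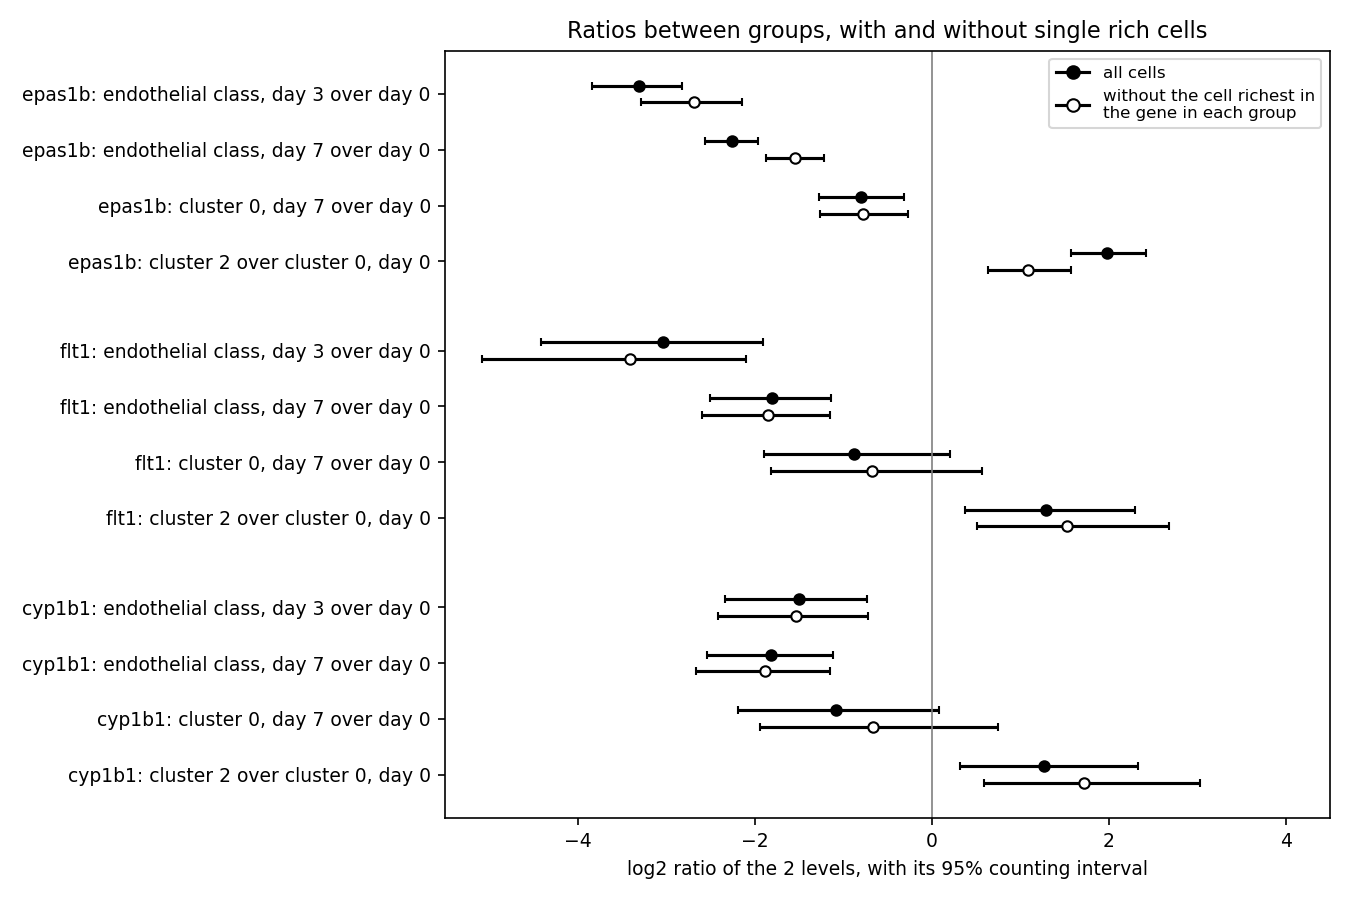
Log2 ratio of levels (horizontal axis) for each gene in 4 comparisons, with 95% counting intervals; filled points use all cells and open points leave out the cell richest in the gene in each group. For epas1b the ratio of cluster 2 to cluster 0 at day 0 is 1.98 with all cells and 1.09 without the richest cells, and the intervals for flt1 and cyp1b1 in cluster 0, day 7 over day 0, cross 0.

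Other properties of the libraries ran along with the days. In the endothelial class, the median share of a cell's UMIs from cardiomyocyte markers was 4.33% at day 0, 0.46% at day 3 and 1.48% at day 7, and that of mitochondrial genes was 2.04%, 0.76% and 0.60%. At day 0 the cardiomyocyte share was 4.91% in cluster 2 and 3.62% in cluster 0. Endothelial markers of the class summed to 3955 CPM at day 0, 3199 CPM at day 3 and 2618 CPM at day 7. Epicardial markers summed to 3409, 9632 and 4768 CPM on the same days. The part of these shifts in the levels of the 3 genes was not tested. When cardiomyocyte, mitochondrial and globin genes were left out of the total, the log2 ratios of day 3 to day 0 were -3.40 for epas1b, -3.13 for flt1 and -1.59 for cyp1b1. Only the totals changed, so the ratios of all 3 genes moved by the same amount. This recalculation therefore cannot show what part the shifts had.

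Cells that detected several of the genes were most frequent in cluster 2 at day 0. The genes were chosen by their levels in cluster 2, so this order was largely set by the choice. Whether cells held several genes more often than their single shares give was not tested. In cluster 2 at day 0, 70 of 86 cells had at least 1 of the genes, 38 had at least 2, and 9 had all 3. In cluster 0 at day 0, 42 of 72 cells had at least 1, 10 had at least 2, and none had all 3. Over the endothelial class, at least 2 genes were found in 49 of 166 cells at day 0 (29.5%), 7 of 113 at day 3 (6.19%) and 21 of 224 at day 7 (9.38%). All 3 were found in 13 of the 754 cells: the 9 of cluster 2 at day 0, 3 endothelial-class cells of day 7, 2 of them in cluster 0, and 1 cardiomyocyte-like cell of day 7. Of the 113 endothelial-class cells at day 3, none had a UMI of all 3, and a count of 0 (set to 3 cells) allows a share of such cells of up to 2.65%.

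**Figure D4:**
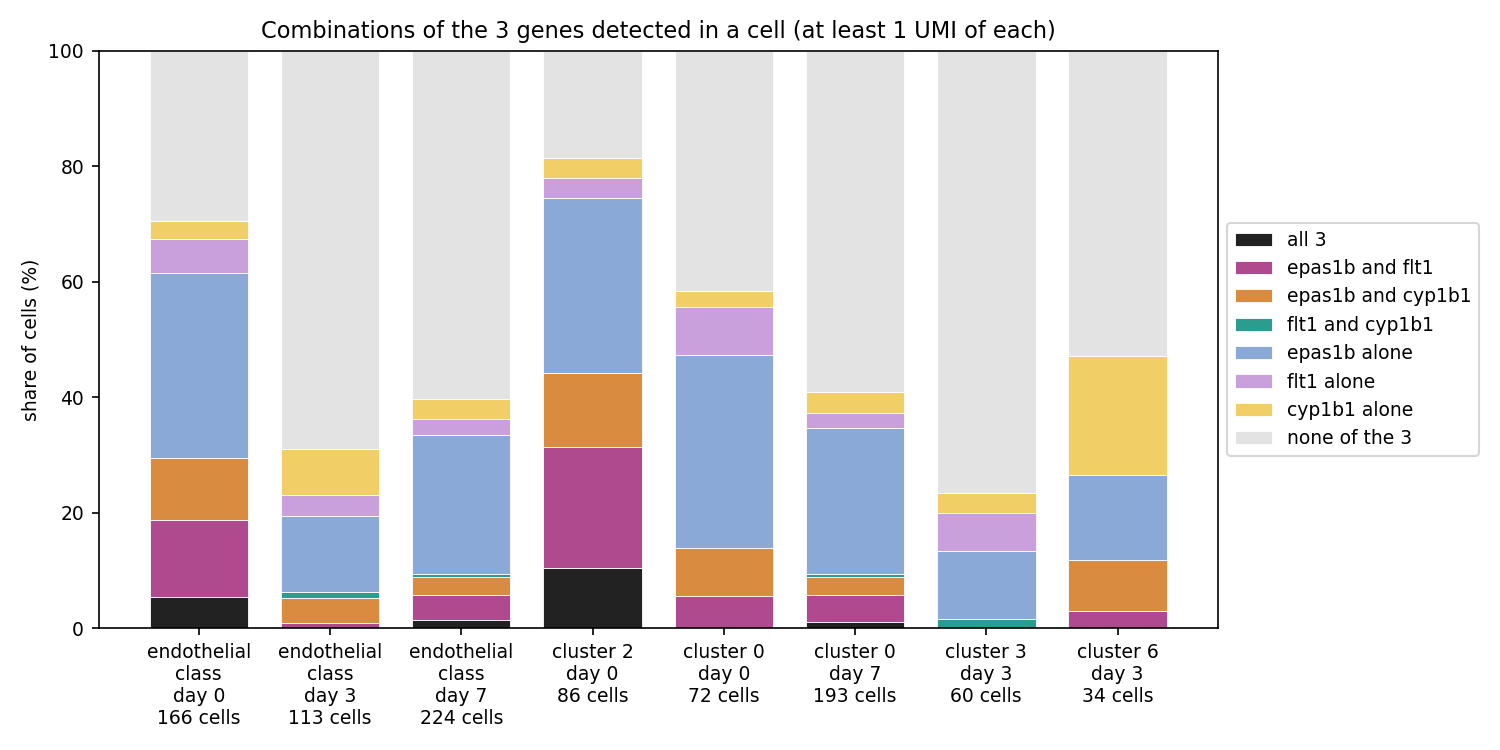
Share of cells (vertical axis, percent) with each combination of the 3 genes, by group, with a gene counted as detected at 1 UMI. Cells with epas1b and a second gene fill more of cluster 2 at day 0, where 38 of 86 cells had at least 2 genes, than of any other group shown. The choice of the genes by their cluster 2 levels largely set this order.

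Joint detection was read pair by pair. In the day 0 endothelial class, cyp1b1 was found in 26.5% of the 102 cells with epas1b (18.2 to 36.1) and in 7.81% of the 64 cells without it (2.59 to 17.3). At equal depth these shares were 19.8% and 9.37%. flt1 was found in 30.4% of the cells with epas1b (21.7 to 40.3) and in 15.6% of those without (7.76 to 26.9), but at equal depth the shares were 19.5% and 14.9%. cyp1b1 was found in 22.0% of the 41 cells with flt1 and in 18.4% of the 125 cells without it, or 15.5% and 14.5% at equal depth. Read from the other gene at equal depth, epas1b was found in 68.3% of cells with cyp1b1 and 47.4% of those without, and in 57.2% of cells with flt1 and 49.1% of those without. The class at day 3 had cyp1b1 in 23.8% of cells with epas1b and 10.9% without, and at day 7 in 13.5% and 6.00%. At equal depth these were 2.64% and 6.34% at day 3, and 4.21% and 5.06% at day 7. Only 5 cells at day 3 and 10 at day 7 had both. For flt1 in cells with and without epas1b, equal-depth shares were 0.09% and 3.21% at day 3, and 6.57% and 4.20% at day 7. Only 1 cell at day 3, with 19189 UMIs before thinning, and 13 cells at day 7 had both epas1b and flt1. Differences between the days were not tested.

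Within cluster 2 at day 0, flt1 was found in 27 of 64 cells with epas1b (42.2%, 29.9 to 55.2) and in 3 of 22 without it (13.6%, 2.91 to 34.9). At equal depth these shares were 28.0% and 18.7%. In cluster 0 at day 0, flt1 was found in 4 of 34 cells with epas1b (11.8%, 3.30 to 27.5) and in 6 of 38 without it (15.8%, 6.02 to 31.3). At equal depth these were 5.89% and 13.3%. In both clusters the intervals with and without epas1b overlapped. No cell of cluster 0 at day 0 had both flt1 and cyp1b1. The difference between the clusters was not tested. cyp1b1 was found in 20 of 64 cells with epas1b and 3 of 22 without it in cluster 2 (23.7% and 14.1% at equal depth), and in 6 of 34 with and 2 of 38 without it in cluster 0.

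Cells with a detected gene were also deeper. In cluster 2 at day 0 the median depth was 3230.5 UMIs in cells with epas1b and 2436.5 in those without, and 3686 UMIs in the 9 cells with all 3 genes and 2715 in the others. The main VEGF signalling receptor gene kdrl had 579 CPM in those 9 cells (21 UMIs) and 244 CPM in the other 77 (60 UMIs). The summed endothelial markers were closer, at 3973 and 3722 CPM. So were the genes fabp11a, at 22129 and 23247 CPM, and spock3, at 4718 and 4644 CPM. The kdrl difference was not tested.

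The regulators and partners of these genes were read from lists, with a gene counted as measured when the groups compared held at least 20 of its UMIs in sum, and as higher or lower when its level, with 10 CPM added, differed by at least 2-fold. In the endothelial class at day 3 over day 0, 13.6% of 2565 measured genes were higher by this rule and 15.2% were lower. At day 7 over day 0, 8.57% of 3012 genes were higher and 11.8% were lower. The 3 genes themselves lay at -3.15, -2.39 and -1.30 (epas1b, flt1, cyp1b1) at day 3 on this log2 scale, and their direction was partly set by the choice. Both comparisons share the day 0 cells.

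**Figure D5:**
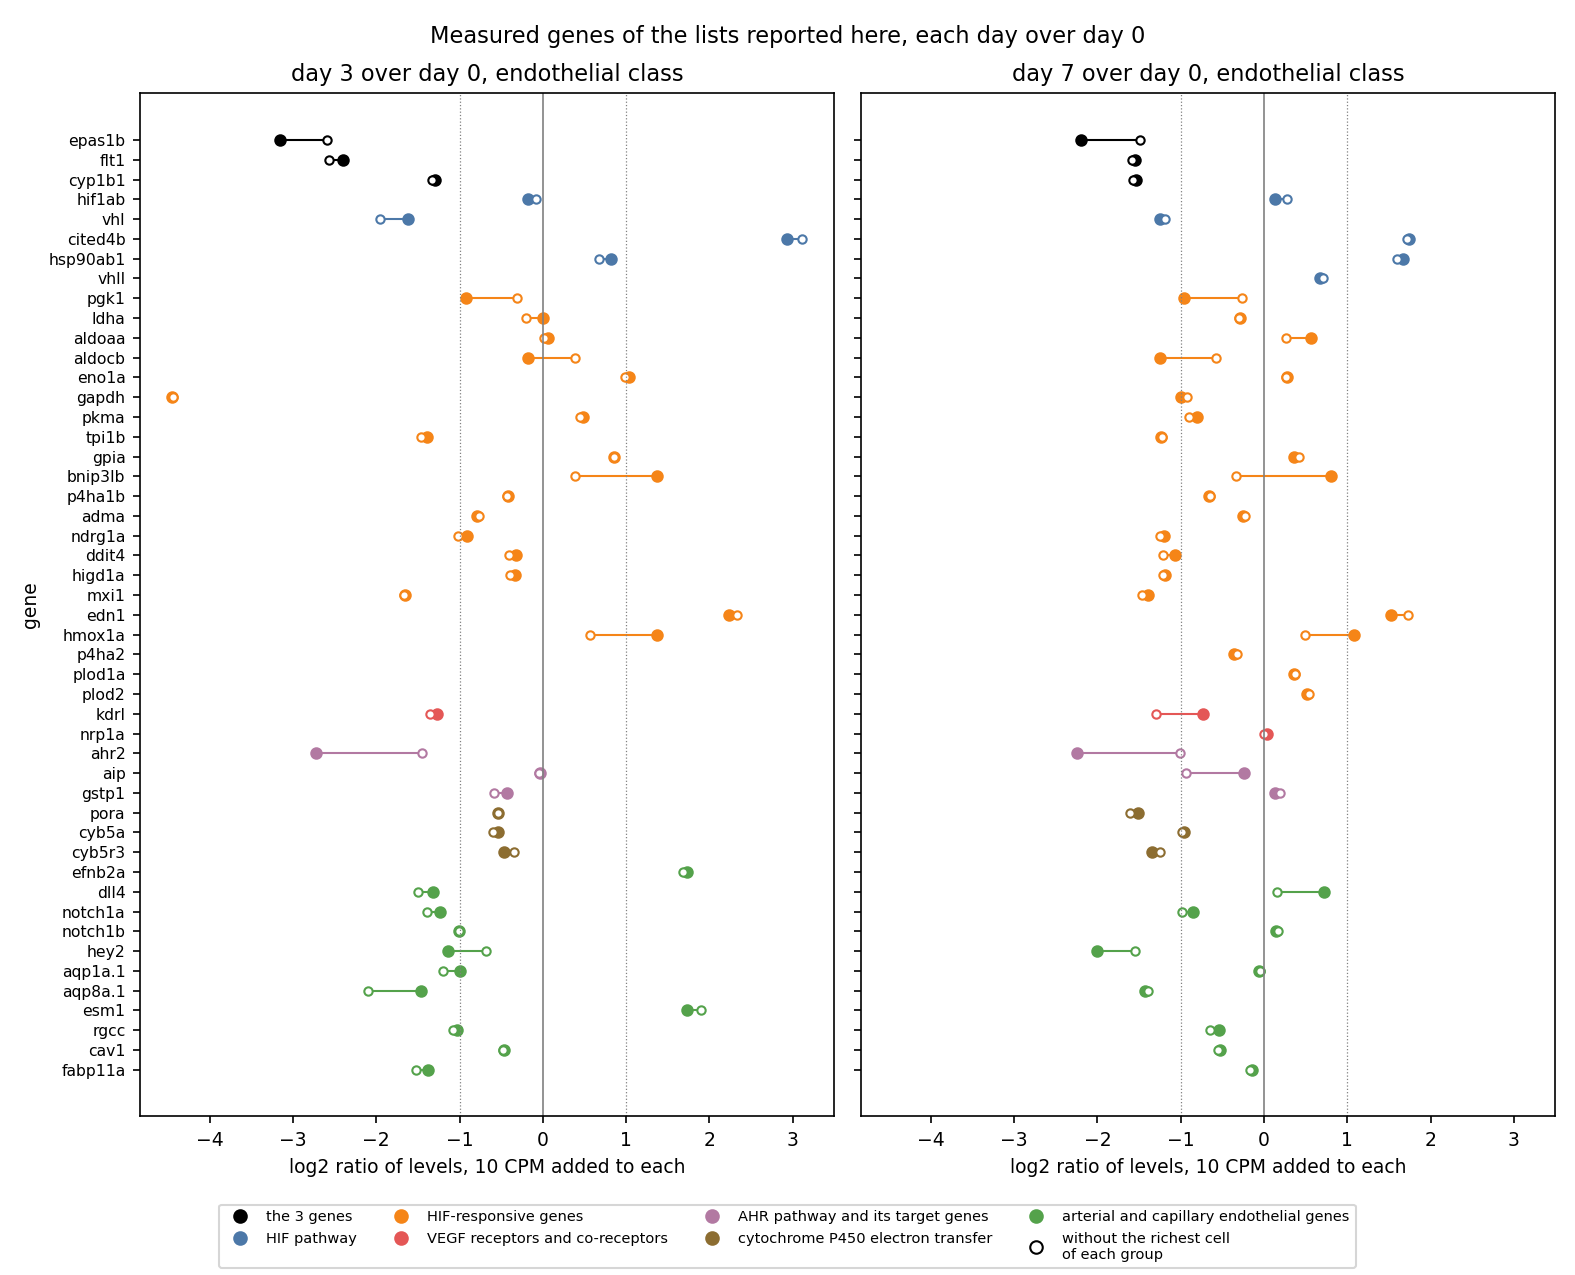
Log2 ratio of levels with 10 CPM added (horizontal axis) for the measured genes of 6 lists that are reported here, day 3 over day 0 on the left and day 7 over day 0 on the right, in the endothelial class. Filled points use all cells, open points leave out the richest cell of each group, and dotted lines mark 2-fold; ahr2 and kdrl move most between the points among the receptor genes.

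Of the core HIF pathway, 4 of 22 genes were measured at day 3, with 1 higher and 1 lower. Their median log2 ratio was 0.32, against -0.04 for all measured genes. At day 7, 5 were measured, with 2 higher and 1 lower, and a median of 0.68 against -0.13. The gene vhl, whose product marks HIF alpha subunits for destruction, was lower at both days, with 96.2 CPM at day 0, 24.5 CPM at day 3 and 34.9 CPM at day 7. cited4b, of a family that binds the CBP and p300 coactivators, was higher at both, with 15.7 CPM at day 0, 186 CPM at day 3 and 75.8 CPM at day 7. hif1ab, which encodes a HIF-1 alpha, stayed within 2-fold, at log2 ratios of -0.18 at day 3 and 0.13 at day 7. The second HIF-2 alpha gene, epas1a, had 68 UMIs in all cells and was not measured in either comparison, and egln1a, a prolyl hydroxylase gene, had none.

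Genes known from other settings to respond to HIF did not share a direction. At day 3, 5 of 19 measured genes were higher and 3 were lower, with a median log2 ratio of -0.18 against -0.04 for all measured genes. Among the higher were the vasoconstrictor gene edn1, at 286 CPM at day 3 against 53.0 CPM at day 0, eno1a, bnip3lb and hmox1a. The last 2 were within 2-fold without the richest cell of each group, and so was eno1a, at 0.98. Lower were the glycolytic genes gapdh and tpi1b and the MYC antagonist gene mxi1, at 14.3 CPM against 66.8 CPM. gapdh and tpi1b are also abundant in heart muscle, and cardiomyocyte markers summed to 8741 CPM at day 3 against 47231 CPM at day 0 in these cells; their part in the result was not tested. At day 7, 3 of 22 were higher and 6 were lower, with a median of -0.32 against -0.13.

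In the VEGF family, no ligand gene reached the 20 UMIs in the endothelial-class groups compared. vegfaa had 10 UMIs, vegfab 23 and vegfc 137 in all 754 cells. The receptor gene kdrl was lower at day 3, with 94.0 CPM against 242 CPM at day 0, a 10-CPM-added log2 ratio of -1.27. At day 7 it had 142 CPM, a log2 ratio of -0.73, or -1.29 without the richest cells. flt4 had no UMI and kdr had 21 UMIs in all cells, so receptor balance beyond kdrl and flt1 could not be read. Of the AHR list, 3 genes besides cyp1b1 were measured. The receptor gene ahr2 was lower at day 3, with 14.3 CPM against 151 CPM at day 0, but 51 of its day 0 UMIs were in 1 cell, and without the richest cells the log2 ratio was -1.46 in place of -2.73. The AHR partner gene aip stayed within 2-fold at both days. cyp1a and cyp1c1, the best-known AHR target genes next to cyp1b1, had no UMI in any cell. Other genes of the list were found at low counts over all cells: tiparp had 31 UMIs, cyp1c2 23 and cyp1d1 44. The gene pora, the reductase that hands electrons to cytochrome P450 enzymes, had 66.8 CPM at day 0, 42.9 CPM at day 3 and 16.8 CPM at day 7.

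Genes of arterial and capillary endothelium were lower at day 3 in 7 of 11 measured and higher in 2, with a median log2 ratio of -1.03. Lower were the Notch ligand gene dll4 (18.4 CPM at day 3 against 60.9 CPM at day 0), the receptor genes notch1a and notch1b, the Notch target hey2, the water channel gene aqp8a.1, rgcc and the fatty-acid-binding protein gene fabp11a (8295 CPM against 21595 CPM). hey2 was within 2-fold without the richest cells, at -0.68. Higher were efnb2a and esm1, each with 42.9 CPM at day 3 against 5.89 CPM at day 0. At day 7, none of 9 was higher and 2 were lower, hey2 and aqp8a.1, while dll4 had 107 CPM, a log2 ratio to day 0 of 0.72, or 0.15 without the richest cells.

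The same lists were read between cluster 2 and cluster 0 at day 0, where 13.2% of 1487 measured genes were higher in cluster 2 and 7.46% were lower. Of the HIF-responsive genes, 6 of 18 measured were higher in cluster 2 and 1 was lower, with a median log2 ratio of 0.46 against 0.11 for all measured genes. The higher ones were pgk1, ldha, aldocb and gpia of glycolysis, p4ha1b, a collagen prolyl hydroxylase gene, and adma, which encodes the vessel peptide adrenomedullin, at 63.7 CPM in cluster 2 against 10.2 CPM in cluster 0. pgk1 was within 2-fold without the richest cells, at 0.60, and the interval of ldha included no difference. vhl was also higher, with 138 CPM in cluster 2 against 46.1 CPM in cluster 0, and ahr2 was within 2-fold without its richest cells, at 0.85. Cardiomyocyte markers summed to 53758 CPM in cluster 2 and 43842 CPM in cluster 0; their part in the result was not tested.

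Between the day 3 clusters that differed in cyp1b1, 18.4% of 1258 measured genes were higher in cluster 6 than in cluster 3 and 23.4% were lower. Cluster 6 had more cited4b (432 CPM against 43.6 CPM in cluster 3), kdrl (153 CPM against 48.4 CPM) and gstp1, a glutathione transferase gene. It also held all day 3 UMIs of efnb2a and esm1 in these 2 clusters, 21 of each. These were the 2 higher of 5 measured arterial and capillary genes. The other 3 were lower in cluster 6, and the median log2 ratio of the 5 was -2.72, against -0.13 for all measured genes. HIF-responsive genes were mostly lower in cluster 6, 8 of 14 measured against 1 higher, among them edn1, hmox1a and ldha. The 1 higher, bnip3lb, had 46 of its 59 UMIs in 1 cell.

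For each gene, the genes with the most similar pattern were taken by Pearson correlation of log2 levels, with 10 CPM added, over the 12 combinations of cluster and day with at least 10 cells, among 2717 genes with at least 50 UMIs. These points share libraries and depth, so the correlations are descriptions. The 5 nearest to epas1b were fam107b (0.93), sid4 (0.90), mgst1.2 (0.89), C8H9orf116 (0.88) and mob4 (0.87). Single rich cells entered these values: mob4 had 110 of its 209 UMIs in 1 cell, and epas1b had 161 of 574. Nearest to flt1 were the insulin receptor gene insra (0.94), the transcription factor genes nfia (0.90) and klf17 (0.87), SYCE3 (0.85) and the netrin gene ntn1b (0.84). For cyp1b1 they were etv2 (0.94), an ETS factor gene that specifies endothelium in the embryo, fam174b (0.91), mxi1 (0.90), kdrl (0.88) and mlnl (0.87). Of these, fam174b had 147 of its 641 UMIs in 1 cell, and kdrl had 45 of 321. The 3 genes stood further down each other's rankings: flt1 was at rank 53 and cyp1b1 at rank 77 for epas1b, with correlations of 0.78 and 0.76. epas1b was at rank 26 for flt1 and at rank 47 for cyp1b1. The order depended on the groups used. Over the 7 clusters with days pooled, flt1 had a correlation of 0.97 with epas1b, above those of the 5 genes named for epas1b (0.89 to 0.96).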

How the data were processed

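Droplet libraries were counted with Cell Ranger on genome build GRCz10, per the submitters' processing notes, which give no version. The deposited expression table covers 26320 genes and 754 cells in natural log (ln) units. Per the file headers, the deposited metadata adds the UMI and gene counts of each cell, its day and its cluster numbers. Reversing the logarithm (10000 per cell) and multiplying by the deposited UMI count gave whole numbers within 0.001 for all 497895 values above 0, and these recovered counts were used. A gene was detected at 1 UMI. Levels are summed UMIs per 1000000 UMIs, with exact Poisson intervals. Ratios of 2 levels carry exact intervals conditional on the summed count. Shares carry Clopper-Pearson intervals, all at 95%, and a count of 0 was set to 3 UMIs for a limit. These intervals cover counting error only.

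With 1 library per day no p-value was computed. Cells with few UMIs appear to have been removed before deposit, since none has under 2004, and no doublet caller was run. The class of a cluster was taken from marker sums, by a rule set after the data were seen, with leading genes limited to those that 25% or more of its cells detected. The 3 genes, the lists and the markers were chosen with earlier results of these data known. Named genes were the 3 genes, up to 6 measured genes of each list and comparison with the highest level or the largest change, the 5 most similar genes, and defining markers. Interval coverage was tested only on simulated Poisson counts, the model that the intervals assume. That test does not address the uneven spread of UMIs between cells. Python 3.11.15, numpy 2.4.6, pandas 2.3.3, scipy 1.17.1 and matplotlib 3.10.9 were used. One gene of the lists enters the counts and is not reported here by name. Positions on GRCz10 were not analysed here.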

Additional observations from a re-analysis of the deposited data

How the results depend on the processing

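The 12 ratios of the 3 genes (each day over day 0 in the endothelial class, day 7 over day 0 in cluster 0, and cluster 2 over cluster 0 at day 0) were recomputed under 69 alternatives, and none changed direction. The alternatives reuse the same cells, and ratios that include cluster 2 at day 0 had a direction partly set by the choice of the genes. Adding 10 CPM to both levels, done for each of the 12 ratios, cannot change a direction. Leaving cardiomyocyte, mitochondrial and globin genes out of the total moves all 3 genes of a comparison by the same amount. The count of alternatives is therefore not a count of independent checks. Of the 69 alternatives, 65 stayed within the counting interval of the value reported. The other 4 were all of epas1b. Without the richest cell of each group, its log2 ratio was -2.69 at day 3 over day 0, -1.55 at day 7 over day 0 and 1.09 for cluster 2 over cluster 0, in place of -3.31, -2.26 and 1.98. Without cells in which cardiomyocyte markers held over 5% of the UMIs (66 of 166 at day 0, 4 of 113 at day 3, 20 of 224 at day 7), day 7 over day 0 was -2.60. The share of epas1b cells that also detected flt1, 30.4% as deposited, was 19.5% at 2000 UMIs per cell and 13.2% when detection required 2 UMIs. In the cells counted as without epas1b, the shares with flt1 were 15.6%, 14.9% and 5.31% in the same order. Calls of list genes past 2-fold at day 3 or day 7 numbered 43, with a gene that passed at both days counted at each. The number was 63 at 1.5-fold and 32 with at least 50 UMIs. These are numbers of calls and not shares of the measured list genes, so they cannot be set directly against the shares that follow. Over all measured genes at 2-fold, 13.6% were higher and 15.2% lower at day 3, and 8.57% and 11.8% at day 7. Of the 5 genes most similar to each gene, 1 of epas1b, 1 of flt1 and 2 of cyp1b1 remained by Spearman correlation. By Pearson correlation over the 7 clusters with days pooled, 1 of epas1b, 3 of flt1 and 1 of cyp1b1 remained. With 99 UMIs of flt1 and 103 of cyp1b1 in all, their counting intervals were wide. For both genes, the interval of day 7 over day 0 in cluster 0 included no change. The smallest difference that could be detected at this depth was not computed. No paired analysis was possible because each day had 1 library.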

Other observations

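Venous, lymphatic and endocardial genes of the same cells were read by the same 2-fold rule. Over all measured genes, 13.6% of 2565 were higher and 15.2% lower at day 3 over day 0. At day 7 over day 0 these were 8.57% and 11.8% of 3012. At day 3 over day 0, 2 of 4 measured venous and lymphatic genes were higher: the chemokine receptor gene ackr4b, with 114 CPM at day 3 against 19.6 CPM at day 0, and the adhesion gene sele, with 139 CPM against 58.9 CPM. Neither passed 2-fold at day 7. The median log2 ratio of the 4 genes at day 3 was 0.21, against -0.04 for all measured genes. Among the endocardial genes, klf2a, a flow-responsive transcription factor gene, had 132 CPM at day 0, 664 CPM at day 3 and 54.1 CPM at day 7, and 165 of its day 3 UMIs were in 1 cell. postnb, which encodes the matrix protein periostin, had 57.8 CPM at day 7 and no UMI at day 0. It is also on the fibroblast marker list and stood at rank 1 of the leading genes of fibroblast-like cluster 4. That cluster had 53 cells at day 7 and 0 at day 0, and the part of its RNA in this value was not tested. spock3 and gata5 were within 2-fold at both days.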
